A study of Mus musculus with 6 samples.

Results

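Interferon-stimulated genes are the genes that cells switch on when an interferon binds its receptor, and 39 of them were followed here in neonatal mouse ovaries cultured with the polycyclic aromatic hydrocarbon 3-methylcholanthrene (3MC). The members were chosen by gene symbol. A member counts as present where a row of the authors' deposited comparison of 3MC with vehicle carries its symbol or an older synonym, and 38 of 39 did, among the 18033 symbols of that table. Isg15 has no such row, so its expression was not analysed here, and it enters the promoter counts alone. The 38 members hold 64 of the 25697 rows, since many genes have several probes. Values for each array were available where a row could be linked to 1 probe by its ratio, which held for 40 rows of 28 members. Of these, 34 probes of 25 members lay above the filter on dim probes and entered the test.

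Interferons signal through receptor-bound Janus kinases, which phosphorylate STAT proteins. Type I interferons make a complex that holds IRF9 bind the interferon-stimulated response element (ISRE) in promoters, while interferon gamma acts through the gamma-activated sequence (GAS). The induced genes encode RNA sensors, antiviral effectors that block entry, translation or replication, GTPases that attack vacuoles, and feedback inhibitors. Many of them keep a low basal level in uninfected tissue, and some respond to IRF1 or to nucleic acid sensors without secreted interferon. In mice, members of the IFITM family are also known as fragilis genes from work on germ cells.

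The ovaries came from Swiss mice on postnatal day 3 to 4 and were kept in organ culture for 96 h on inserts over medium with fetal calf serum. Basic fibroblast growth factor, leukemia inhibitory factor and stem cell factor were present in both groups, and leukemia inhibitory factor itself signals through JAK1 and STAT3. The 3MC group of 3 samples received 5 µM 3MC, a ligand of the aryl hydrocarbon receptor, at a concentration that per the labels was meant to be overtly toxic. The DMSO group of 3 samples received the vehicle, 0.01% dimethyl sulfoxide. Each sample was hybridised to 1 Illumina Mouse Ref-8 BeadChip. The labels do not say whether replicates were separate animals or cultures, nor how many ovaries were pooled, so the p-values speak to variation among these 6 arrays alone, part of which may be technical.

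The median scanner intensity per array was 98.1 to 124.5 in the 3MC group and 107.8 to 109.1 in the DMSO group, with 3MC replicate 1 the highest of all 6. Markers of oocytes were present, with 10 of 11 above the filter, and of granulosa cells 4 of 7, as the ovary label has it. Over all 12848 probes kept, 2028 (15.8%) were higher in 3MC at an adjusted p below 0.05 in limma's moderated test and 2108 (16.4%) were lower. With each array only centred on its median, 343 were higher and 763 lower. Against this background of 32.2% called in either direction, a member's call on its own is not unusual, and the sizes and directions below are read beside it.

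Promoters are shown for the members that changed by 1.5-fold or more, because their known inducer acts through short promoter motifs. Those members were Ifitm1, Ifitm3, Usp18 and Ifit3, which were higher in 3MC, and Ifi47, which was lower. For Usp18 no sequence is shown. Each line gives the 250 bases before the annotated start of transcription, 5′ to 3′ on the gene's strand, from RefSeq on GRCm38.p6. Capitals mark the ISRE core GAAANNGAAA, read on either strand, where N is any base. On GRCm38.p6 the windows are chr7:140967826-140968075 (plus strand) for Ifitm1, chr7:141010745-141010994 (minus strand) for Ifitm3, chr11:49076337-49076586 (plus strand) for Ifi47 and chr19:34583279-34583528 (plus strand) for Ifit3.
Ifitm1: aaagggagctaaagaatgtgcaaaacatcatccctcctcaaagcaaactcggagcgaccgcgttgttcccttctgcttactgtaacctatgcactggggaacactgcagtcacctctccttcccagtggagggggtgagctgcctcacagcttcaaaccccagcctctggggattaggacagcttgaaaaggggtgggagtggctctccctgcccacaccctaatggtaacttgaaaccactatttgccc
Ifitm3: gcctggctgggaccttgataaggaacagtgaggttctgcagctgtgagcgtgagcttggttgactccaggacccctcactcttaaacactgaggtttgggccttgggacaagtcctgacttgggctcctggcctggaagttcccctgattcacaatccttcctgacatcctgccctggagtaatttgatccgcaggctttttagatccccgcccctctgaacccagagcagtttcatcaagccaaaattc
Ifi47: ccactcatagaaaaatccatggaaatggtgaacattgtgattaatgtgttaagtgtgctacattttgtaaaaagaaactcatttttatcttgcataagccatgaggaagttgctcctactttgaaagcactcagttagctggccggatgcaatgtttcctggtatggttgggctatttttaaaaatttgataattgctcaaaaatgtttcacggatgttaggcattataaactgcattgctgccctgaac
Ifit3: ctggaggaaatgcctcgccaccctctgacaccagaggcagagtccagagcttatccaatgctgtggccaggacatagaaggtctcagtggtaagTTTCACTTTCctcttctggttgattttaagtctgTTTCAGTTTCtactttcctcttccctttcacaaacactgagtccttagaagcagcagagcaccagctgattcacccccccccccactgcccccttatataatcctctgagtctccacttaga

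The Ifit3 window holds 2 ISRE cores on the strand opposite to the gene, ending 146 and 112 bases before the start, and the windows of Ifitm1, Ifitm3 and Ifi47 hold 0. No match says only that these letters are not in this window. Of the 32 members with an entry in the table, 14 (43.8%) had at least 1 ISRE core, against 936 of 27025 genes (3.46%) and 978 of 32851 promoters (2.98%). The GAS core TTCNNNGAA was present in 7 members (21.9%), against 2197 genes (8.13%). An ISRE core ended 94 and 75 bases before the start of Ifit1, 110 bases before that of Rsad2 and 36 bases before that of Ifitm2. Among the 13 members that rose in 3MC and have an entry, 5 held an ISRE core, and among the 19 others 9 did. The 19 others include members that were not tested, such as Isg15 and Ifit1, which both held an ISRE core. They are therefore not a set of members that failed to rise. No test of that difference was made.

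Of the 25 members tested, 16 were higher in 3MC, 1 was lower and 8 did not pass. The share of tested members that rose was 64.0%, beside 19.7% of the kept probes that could be linked to a row. The median log2 fold change of the 25 leading probes, the brightest of each gene, was 0.32, and the median over all kept probes was within 0.01 of 0. Changes were mostly small, with standard errors of 0.084 to 0.123 on the log2 scale. The 3 values of 3MC lay above all 3 of DMSO at 23 of the 34 member probes and below them at 3, while 20.9% and 21.5% of all kept probes did so. Rows with ratios near 1 could be linked less often, so the tested members lean towards those that differ. When the arrays were only centred on their medians in place of quantile normalization, 4 members passed upward and 1 downward. Those 5 were Ifitm1, Ifitm3, Usp18, Oas2 and Ifi47. Irf7 and Oas2 passed the filter on dim probes only through the 3MC arrays, where they were high, so their entry into the test depended on the difference itself. Of the 23 members whose leading probe was above the filter level in both groups, a count added after seeing the data, 14 rose and 1 fell, with a median log2 fold change of 0.31, beside 15.7% and 16.1% of the 12324 such probes.

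**Figure D1:**
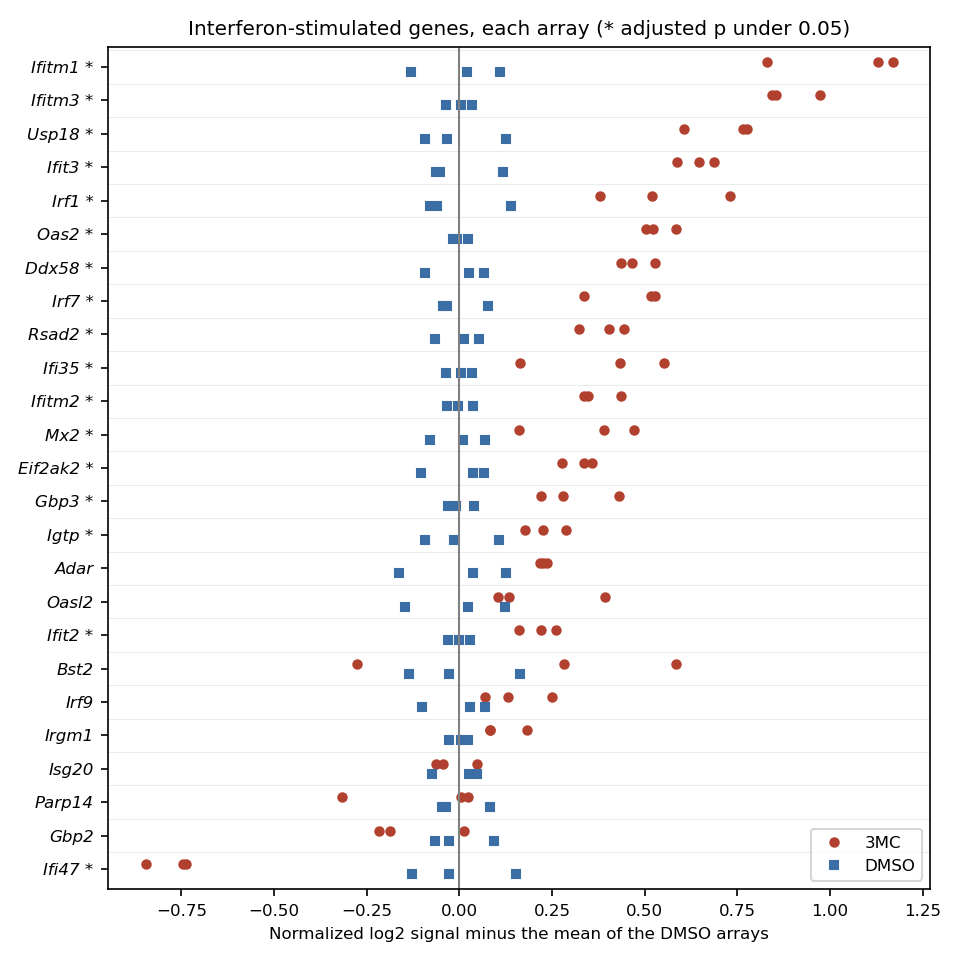
Each row is 1 of the 25 tested members at its leading probe, ordered by log2 fold change, and each point is 1 array (3MC circles, DMSO squares) on the x axis of normalized log2 signal minus the mean of the 3 DMSO arrays. An asterisk marks an adjusted p below 0.05, which 16 members reached upward and Ifi47 downward, and the 3MC circles of Bst2 spread more widely than those of the other members.

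The authors' deposited table covers all 38 members whether or not a row was linked. Of the 64 member rows, 51 had a ratio of 3MC to DMSO above 1 and 13 a ratio below 1. That share of 79.7% stands beside 50.4% over all rows. The median log2 ratio was 0.12 over member rows and 0.001 over all rows. By the row of largest change, 4 members were 1.5-fold or more higher and 1 was as much lower in the authors' deposited table, where 1.4% and 1.28% of all symbols were. At 1.2-fold, 15 members were higher and 1 was lower, where 6.53% and 6.79% of symbols were. Averaged over all rows of a gene, 32 of 38 members had a mean log2 ratio above 0, against 50.2% of symbols. The folds given below come from background-corrected signals and can differ from these ratios, as for Ifitm1 (2.06-fold, against a deposited ratio of 1.82371 in the authors' table).

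**Figure D2:**
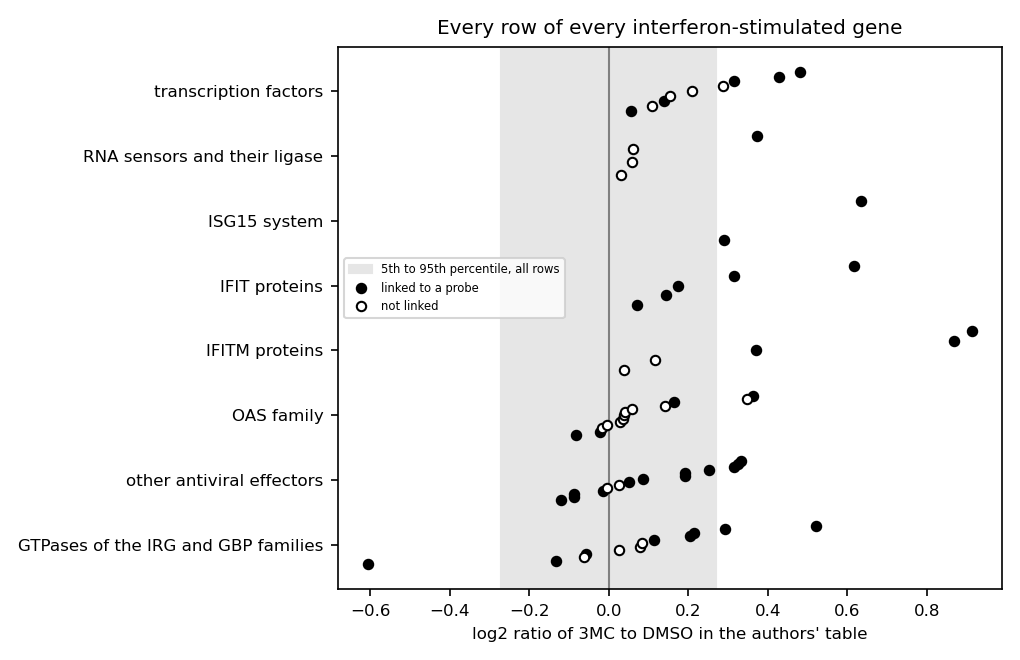
Each circle is 1 of the 64 member rows, grouped by role, with its log2 ratio (3MC over DMSO) from the authors' deposited table on the x axis. Filled circles were linked to a probe and open ones were not, and the grey band runs from the 5th to the 95th percentile of all rows (-0.27 to 0.27): 19 member rows lie above it and 1, of Ifi47, below.

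Transcription factors of the pathway were higher in 3MC at 2 of 3 tested members. Irf1, a factor that interferon gamma induces and that drives many antiviral genes, had log2 signals of 8.28, 8.14 and 8.49 in 3MC, against 7.70, 7.90 and 7.68 in DMSO (probe ILMN_2649067, chromosome 11). The groups did not overlap, and the log2 fold change was 0.54 ± 0.093 (SE, n = 3 per group, adjusted p = 2.2e-05). A second probe of Irf1, ILMN_2649068, gave 0.48 ± 0.090 (adjusted p = 6.44e-05), while the dimmer ILMN_2624100 gave 0.08 (adjusted p = 0.528). Another 2 rows of Irf1, not linked, had ratios of 1.15684 and 1.07851 in the authors' deposited table, so its rows disagreed in size. Irf7, the factor that amplifies interferon alpha production, measured 6.70, 6.71 and 6.52 in 3MC, against 6.26, 6.15 and 6.14 in DMSO. All 3MC values were the higher ones, and Irf7 rose by a log2 fold change of 0.46 ± 0.087 (adjusted p = 8.51e-05). Its mean of 6.64 in 3MC lay above the filter level of 6.28 and its mean of 6.18 in DMSO below it. Irf9, the DNA-binding subunit of the complex that binds the ISRE, had 8.53, 8.71 and 8.59 in 3MC, against 8.49, 8.36 and 8.53 in DMSO, and did not pass (0.15 ± 0.087, adjusted p = 0.188). The DMSO values reached the lowest 3MC value. Another row of Irf9, not linked, had a ratio of 1.2204 in the authors' deposited table, and the single row of Stat2, a signal transducer of the type I receptor, had 1.11361, also not linked.

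RNA sensors and the ligase TRIM25 could be tested at 1 member. Ddx58 encodes RIG-I, which recognises viral RNA ends and signals through MAVS. Its log2 signals were 7.33, 7.27 and 7.24 in 3MC, against 6.87, 6.71 and 6.83 in DMSO. The groups lay apart, and Ddx58 rose 1.39-fold (log2 fold change 0.48 ± 0.086, adjusted p = 3.65e-05). The authors' deposited table gave the other 3 members ratios of 1.02223 for Ifih1, which encodes the sensor MDA5, 1.04309 for Dhx58, which encodes LGP2, and 1.04106 for Trim25. None of these 3 rows was linked, so their signal over background is unknown.

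The ISG15 system attaches the ubiquitin-like protein ISG15 to others and removes it again. Usp18 encodes the protease that removes ISG15 and that also blocks the type I receptor as a feedback inhibitor. At its brighter probe (ILMN_3131679, chromosome 6) the log2 signals were 8.21, 8.37 and 8.38 in 3MC, against 7.57, 7.51 and 7.73 in DMSO. The lowest 3MC value stood above the highest DMSO value, and the gene rose 1.64-fold (0.72 ± 0.088, adjusted p = 4.32e-08). Its other probe, ILMN_3054914, had 6.77, 6.82 and 6.85 in 3MC, against 6.43, 6.51 and 6.27 in DMSO. That probe moved in the same direction by 0.41 ± 0.087 (adjusted p = 0.000388).

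IFIT proteins bind RNAs that lack the cap marks of the host, and their genes lie in 1 cluster on chromosome 19. Ifit3 had 9.48, 9.44 and 9.38 in 3MC, against 8.74, 8.73 and 8.91 in DMSO at probe ILMN_2944666. The groups were well separated, and Ifit3 rose 1.56-fold (log2 fold change 0.64 ± 0.086, adjusted p = 3.06e-07). Its dimmer probe ILMN_1230458 measured 6.99, 6.85 and 6.86 in 3MC, against 6.38, 6.61 and 6.41 in DMSO (0.43 ± 0.088, adjusted p = 0.000216). Both probes of Ifit3 thus moved the same way, by different amounts. Ifit2 was only just called, with 7.54, 7.50 and 7.44 in 3MC, against 7.25, 7.28 and 7.31 in DMSO (0.21 ± 0.084, adjusted p = 0.0499). The groups did not overlap, but the call was lost under 11 of 13 other settings, the sign turned to -0.02 with median centring and without 3MC replicate 1, and a second probe of Ifit2 gave 0.09 (adjusted p = 0.506). Ifit1 lay below the filter, with 6.00, 6.08 and 6.04 in 3MC, against 5.82, 5.80 and 5.79 in DMSO. Without the filter on dim probes its log2 fold change was 0.24 (adjusted p = 0.0365).

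IFITM proteins sit in endosomal and plasma membranes and block the fusion of virus with the cell. All 3 tested members rose, and 2 of them were the members of largest rise. Ifitm1 (probe ILMN_2814484, chromosome 7) had log2 signals of 7.77, 8.07 and 8.11 in 3MC, against 7.05, 6.81 and 6.96 in DMSO. The groups stood far apart, and Ifitm1 rose 2.06-fold (1.04 ± 0.094, adjusted p = 3.52e-11). Another 2 rows of Ifitm1 had ratios of only 1.08426 and 1.02688 in the authors' deposited table, against 1.82371 for the linked row, so the probes of this gene disagreed in size. Ifitm3, the member named fragilis in germ cell studies, measured 13.44, 13.31 and 13.32 in 3MC, against 12.50, 12.43 and 12.47 in DMSO. Values within each group were close, and Ifitm3 rose 1.85-fold (0.88 ± 0.085, adjusted p = 1.64e-10). Ifitm2 had 13.50, 13.40 and 13.41 in 3MC, against 13.03, 13.06 and 13.10 in DMSO. It rose 1.30-fold (0.38 ± 0.085, adjusted p = 0.000698), with a log2 fold change of 0.14 (adjusted p = 0.607) when arrays were centred on their medians. Ifitm2 and Ifitm3 have similar sequences, and signal shared between their probes cannot be told apart.

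Oligoadenylate synthetases sense double-stranded RNA and make the messenger that activates the nuclease RNase L. Oas2 (chromosome 5) had 6.68, 6.60 and 6.62 in 3MC, against 6.08, 6.12 and 6.09 in DMSO. Values within each group were close, and Oas2 rose 1.45-fold (log2 fold change 0.53 ± 0.084, adjusted p = 4.72e-06). Its mean of 6.63 in 3MC lay above the filter level of 6.28 and its mean of 6.10 in DMSO below it. Oasl2, a relative of the synthetases with ubiquitin-like domains, had 7.27, 7.01 and 6.98 in 3MC, against 6.73, 7.00 and 6.90 in DMSO. These groups overlapped, and Oasl2 did not pass (0.21 ± 0.093, adjusted p = 0.0793). The other Oasl2 row, not linked, had a ratio of 1.27327 in the authors' deposited table. Both linked probes of Oas1g lay below the filter, with log2 fold changes of -0.13 (adjusted p = 0.335) and -0.04 (adjusted p = 0.856) when dim probes were kept. The rows of Oas1a, Oas3 and Oasl1 were not linked and had ratios between 0.987615 and 1.04073 in the authors' deposited table. Mouse Oas1 genes are near-identical copies, so their probes may share signal.

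Other antiviral effectors rose at 4 of 8 tested members. Rsad2 encodes viperin, which makes a chain-terminating nucleotide, and had 7.78, 7.90 and 7.86 in 3MC, against 7.51, 7.39 and 7.47 in DMSO. The groups did not overlap, and Rsad2 rose by a log2 fold change of 0.39 ± 0.085 (adjusted p = 0.000513). Eif2ak2 encodes PKR, which halts translation on sensing double-stranded RNA, and measured 9.75, 9.83 and 9.81 in 3MC, against 9.51, 9.37 and 9.54 in DMSO. Here too every 3MC value was higher (0.32 ± 0.086, adjusted p = 0.00385). Mx2, a dynamin-like GTPase, had 7.05, 6.97 and 6.74 in 3MC, against 6.65, 6.59 and 6.50 in DMSO (0.34 ± 0.090, adjusted p = 0.00347). Its groups lay apart by a small margin, between 3MC replicate 3 and DMSO replicate 1. Ifi35, an interferon-induced leucine zipper protein, had 7.96, 7.57 and 7.84 in 3MC, against 7.44, 7.37 and 7.41 in DMSO. It rose by 0.38 ± 0.093 (adjusted p = 0.00158), with 3MC replicate 2 closest to the DMSO values. The related Mx1 was not linked, with a ratio of 1.01815 in the authors' deposited table.

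The other 4 tested effectors did not pass. Bst2 encodes tetherin, which holds budding virions on the cell surface. It had the widest spread of the members, with 9.06, 9.92 and 9.62 in 3MC, against 9.50, 9.31 and 9.20 in DMSO. 3MC replicate 1 was below every DMSO value while the other 2 were above them, giving 0.20 ± 0.123 (adjusted p = 0.231). Without 3MC replicate 1 the log2 fold change was 0.43 (adjusted p = 0.00147). Adar, the RNA editing enzyme ADAR1, had probes in both directions. One probe had 7.74, 7.76 and 7.75 in 3MC, against 7.56, 7.36 and 7.65 in DMSO (0.22 ± 0.088, adjusted p = 0.0502), and its other 2 gave -0.13 (adjusted p = 0.266) and -0.16 (adjusted p = 0.171). Parp14, an ADP-ribosyltransferase, had 7.92, 8.26 and 8.24 in 3MC, against 8.19, 8.32 and 8.20 in DMSO (-0.10 ± 0.093, adjusted p = 0.468). Isg20, an RNA exonuclease, had overlapping groups and a difference of -0.02 on the log2 scale (adjusted p = 0.888). Ifi44 lay below the filter, and Xaf1, an XIAP-binding protein, was not linked and had a ratio of 0.996418 in the authors' deposited table.

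Interferon-inducible GTPases of the IRG and GBP families, which interferon gamma induces and which act on vacuoles that hold pathogens, went both ways. Ifi47, an IRG GTPase on chromosome 11, was the single member that fell. Its log2 signals were 6.70, 6.69 and 6.59 in 3MC, against 7.59, 7.41 and 7.31 in DMSO. Every 3MC value was lower, and Ifi47 was 1.71-fold lower in 3MC (log2 fold change -0.78 ± 0.089, adjusted p = 9.72e-09). Igtp, another IRG GTPase of chromosome 11, had 8.60, 8.54 and 8.49 in 3MC, against 8.22, 8.42 and 8.30 in DMSO. Igtp rose by 0.23 ± 0.087 (adjusted p = 0.0354), a call lost under 6 other settings, with -0.08 under median centring without 3MC replicate 1. Irgm1, which regulates the other IRG GTPases, had a fitted difference of 0.11 ± 0.085 on the log2 scale (adjusted p = 0.321) at its brighter probe and 0.23 ± 0.089 (adjusted p = 0.0487) at the other, which lost its call under 9 settings and gave -0.10 under median centring without 3MC replicate 1. These IRG genes of chromosome 11 thus did not share a direction.

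Guanylate-binding proteins coat and lyse such vacuoles. Gbp3 had 9.10, 8.95 and 8.89 in 3MC, against 8.66, 8.64 and 8.71 in DMSO at probe ILMN_1244513. The groups lay apart, and this probe rose by 0.31 ± 0.087 (adjusted p = 0.00519), with -0.04 under median centring without 3MC replicate 1. A second probe of Gbp3, ILMN_2918002, had 8.79, 8.75 and 8.88 in 3MC, against 8.41, 8.10 and 8.20 in DMSO (0.57 ± 0.090, adjusted p = 5.33e-06). Gbp2 had 12.04, 11.81 and 11.84 in 3MC, against 11.96, 12.12 and 12.00 in DMSO. These values overlapped, and Gbp2 did not pass (-0.13 ± 0.089, adjusted p = 0.29). The difference between Gbp3 and Gbp2 was not tested, and these genes lie in 1 cluster of similar sequences on chromosome 3. Iigp1, an IRG GTPase, had 2 rows that were not linked, with ratios of 1.05549 and 1.01899 in the authors' deposited table.

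**Figure D3:**
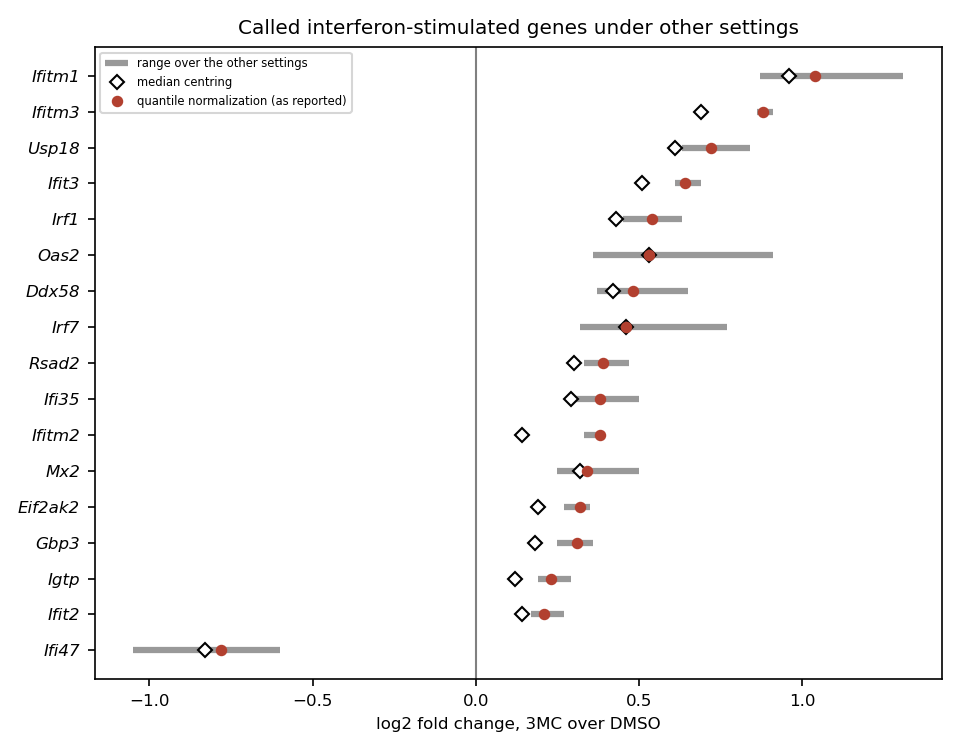
The x axis gives the log2 fold change (3MC over DMSO) of the 17 called members at their leading probe: circles with quantile normalization as reported, diamonds with arrays centred on their medians, and grey bars the range over the other settings. Every drawn marker keeps its side of 0, with Igtp the closest to it at 0.12 and Ifit2 and Ifitm2 next at 0.14 under median centring, while median centring without 3MC replicate 1, not drawn, put Ifit2, Igtp and Gbp3 slightly below 0.

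Upstream of these genes, the ligands and receptors gave little. Of 27 listed, 25 had a row, 5 were tested, 1 rose and 0 fell. Over all kept probes linked to a row, 19.7% rose and 21.5% fell. The listed gene that rose was Ifna6, an interferon alpha gene with near-identical relatives (0.27 ± 0.087, adjusted p = 0.0181, and 0.346 with median centring). The Ifna6 probe was dim, with means of 6.72 in 3MC and 6.46 in DMSO, near the filter level of 6.28. Another row of Ifna6, linked below the filter, had a ratio of 1.01857 in the authors' deposited table. The receptor chains Ifnar2, Ifngr1 and Ifngr2 had log2 fold changes of -0.03 (adjusted p = 0.806), -0.08 (adjusted p = 0.514) and -0.20 (adjusted p = 0.073) at their leading probes. Other rows of Ifnar2, not tested, had ratios of 1.12011 and 0.929908 in the authors' deposited table. A second tested probe of Ifngr2 gave -0.05 (adjusted p = 0.702), and a row of Ifngr2 that was not linked had a ratio of 1.14667. Ifnar1 lay below the filter, with a ratio of 0.981545 in the authors' deposited table. The ligands Ifnb1 and Ifng had ratios of 0.970996 and 1.03005 in the authors' deposited table. Whether these ligand probes had signal above background is unknown.

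Of the relay between receptor and promoter, 3 of 10 tested genes rose and 2 fell. Those counts stand beside 19.7% of kept probes linked to a row that rose and 21.5% that fell. Stat3, which signals for leukemia inhibitory factor and interleukins, had 10.77, 10.64 and 10.85 in 3MC, against 11.36, 11.37 and 11.09 in DMSO. The groups did not overlap, and Stat3 fell by 0.52 ± 0.092 on the log2 scale (adjusted p = 3.01e-05). Its other 2 tested probes gave -0.37 (adjusted p = 0.00108) and -0.01 (adjusted p = 0.941), so the probes of Stat3 disagreed in size. The feedback inhibitors Socs3 and Cish rose, by 0.48 ± 0.084 (adjusted p = 2.84e-05) and 0.48 ± 0.086 (adjusted p = 3.56e-05). Ptpn6, a phosphatase of blood cells that dampens cytokine signals, fell by 0.80 ± 0.091 (adjusted p = 9.38e-09). Jak1 was not linked and had a ratio of 1.27327 in the authors' deposited table. With arrays centred on their medians, 0 of this list passed upward and the 2 falls of Stat3 and Ptpn6 remained.

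Nucleic acid sensors and their adaptors outside the 39 members were mixed, with 3 rises and 4 falls among 12 tested. The shares over kept probes linked to a row were 19.7% higher and 21.5% lower. Ifi202b and Aim2, PYHIN proteins that bind cytosolic DNA, rose by 0.70 ± 0.086 (adjusted p = 4.12e-08) and 0.42 ± 0.086 (adjusted p = 0.000206). A second tested probe of Ifi202b gave 0.05 (adjusted p = 0.723). The adaptor Myd88 rose by 0.23 ± 0.085 (adjusted p = 0.038). Tlr7, an endosomal RNA receptor, fell by 0.48 ± 0.086 (adjusted p = 3.26e-05), Irf5 by 0.39 ± 0.084 (adjusted p = 0.000451), Mavs by 0.33 ± 0.087 (adjusted p = 0.00334) and Samhd1 by 0.26 ± 0.092 (adjusted p = 0.0253). Tlr7 passed the filter only through the DMSO arrays, where it was high. Mavs is the adaptor of RIG-I, whose gene Ddx58 rose. With median centring, Ifi202b (0.61, adjusted p = 0.0151) and Tlr7 (-0.50, adjusted p = 0.0284) passed and the other 5 did not.

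A longer list of 88 other interferon-induced genes, written from textbook knowledge, had 33 tested genes, of which 12 rose, 4 fell and 17 did not pass. Their median log2 fold change was 0.14. Over kept probes linked to a row, 19.7% rose and 21.5% fell. Ly6a, the surface protein Sca-1, had 9.32, 9.38 and 9.39 in 3MC, against 8.37, 8.32 and 8.47 in DMSO. The groups were far apart and Ly6a rose 1.97-fold (0.98 ± 0.085, adjusted p = 1.47e-11). Lgals3bp, a secreted glycoprotein that binds galectins, had 10.26, 10.03 and 10.12 in 3MC, against 9.18, 9.17 and 9.25 in DMSO, a rise of 0.94 ± 0.087 (adjusted p = 7.05e-11). The chemokine gene Cxcl10, named for its induction by interferon gamma, had 8.89, 8.85 and 9.17 in 3MC, against 8.17, 8.17 and 8.19 in DMSO (0.79 ± 0.090, adjusted p = 8.72e-09). These 3 genes and Phf11d (0.69 ± 0.086, adjusted p = 4.81e-08) made up the 4 rises that also passed with median centring. Further rises were seen for Tap1, the peptide transporter of antigen presentation (0.50 ± 0.086, adjusted p = 2.35e-05), and Trim21, a cytosolic antibody receptor (0.49 ± 0.095, adjusted p = 0.000135). Pml and Tapbp rose by 0.34 each at their leading probes. The other tested Tapbp probe gave -0.24 (adjusted p = 0.146), and the other 2 rows of Pml, linked below the filter, had ratios of 0.95362 and 0.971503 in the authors' deposited table. The other 2 rows of Trim21, not linked, had 1.02343 and 1.01663 there.

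The 4 falls on that list, named after their values were seen where they lay outside the 10 of largest change, included genes with other known settings. Psmb9, an immunoproteasome subunit beside Tap1 in the genome, had 7.97, 7.79 and 7.72 in 3MC, against 8.79, 9.09 and 8.66 in DMSO. Psmb9 fell by 1.02 ± 0.097 (adjusted p = 1.47e-10) while its neighbour Tap1 rose. Oas1c, a gene of the oligoadenylate synthetase family known from mouse ovary, had 7.62, 7.97 and 7.96 in 3MC, against 8.47, 8.50 and 8.28 in DMSO. Oas1c fell by 0.57 ± 0.095 (adjusted p = 1.37e-05). Oas1d, known from oocytes, fell by 0.30 ± 0.085 (adjusted p = 0.00622) at its leading probe and by 0.57 ± 0.087 (adjusted p = 3.15e-06) at the other. Ifi30, a lysosomal thiol reductase of antigen-presenting cells, fell by 0.28 ± 0.090 (adjusted p = 0.0142), and its other probe gave -0.17 (adjusted p = 0.166). With median centring Psmb9 and Oas1c passed and the other 2 did not. Among the called genes of the oligoadenylate synthetase family, Oas2 was thus higher in 3MC and Oas1c and Oas1d lower.

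**Figure D4:**
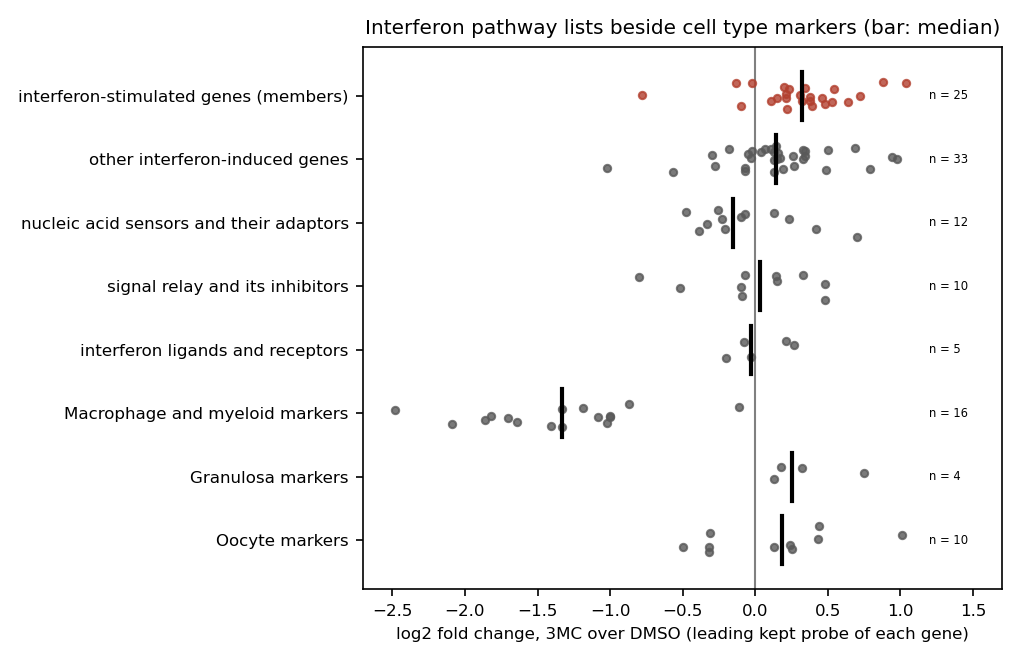
Each point is the leading kept probe of 1 gene, the x axis its log2 fold change (3MC over DMSO) and the bar the median of its list, with the number of genes at the right. The 25 interferon-stimulated members centre on 0.32 and other interferon-induced genes on 0.14, while macrophage and myeloid markers centre on -1.33.

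Markers of other cells were measured on the same arrays. Of 20 macrophage and myeloid markers, 19 had a row and 16 were tested, of which 15 fell, 0 rose and 1, Ctss, did not pass. Their summed normalized signal, on a linear scale, was 2908 to 2958 in the 3MC arrays and 8057 to 8318 in the DMSO arrays. Of all kept probes linked to a row, 21.5% fell. Csf1r, Tyrobp, Cx3cr1 and Ctss had 3MC means of 6.15, 6.26, 5.96 and 6.22, below the filter level of 6.28. Only the DMSO arrays, where they were higher, brought these markers into the test. Among the defining ones, Adgre1 had a log2 fold change of -1.41, Csf1r -0.87 and Cd68 -1.02, while Itgam and Ptprc were not linked and Fcer1g lay below the filter. In the authors' deposited table these 3 did not go lower, with ratios of 1.02205 for Itgam, 1.0173 and 1.05139 for Ptprc and 1.02708 for Fcer1g, and the signal of the unlinked ones over background is unknown. In a bulk sample, fewer cells of a type and less RNA per cell cannot be told apart. The 16 members that rose and the 1 that fell thus stand beside a fall of these markers. The part of macrophage content in either direction was not tested.

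Of 14 lymphocyte markers only Lck was tested, with signals of 127 to 143 in 3MC and 119 to 132 in DMSO. Of 5 markers of plasmacytoid dendritic cells, the main interferon alpha producers, Bst2 alone was tested, and it is also a member here. Siglech, the defining marker of those cells in mice, was not among the tested genes. Endothelial markers were tested at 3 of 7, none passed, and they summed to 666 to 736 in 3MC and 633 to 639 in DMSO. Granulosa markers rose at 2 of 4 and summed to 495 to 552 in 3MC and 391 to 433 in DMSO. Of the 2, Cyp19a1 had means of 6.93 in 3MC and 6.18 in DMSO, either side of the filter level of 6.28. Cyp19a1 thus entered the test only through the 3MC arrays, where it was high. Of 10 oocyte markers 5 rose and 4 fell, with sums of 23633 to 25617 in 3MC and 22531 to 23767 in DMSO. Markers of surface epithelium and stroma rose at 3 and fell at 2 of 6, and summed to 12400 to 14156 in 3MC and 14518 to 15016 in DMSO. Beside these marker counts, 19.7% of kept probes linked to a row rose and 21.5% fell. The part of each of these cell types in the members' values was not tested.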

How the data were processed

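Per the labels, biotinylated cRNA from cultured mouse ovaries was read on Illumina Mouse Ref-8 BeadChips, 3 arrays of 3MC and 3 of DMSO, grouped by sample title. The number of arrays limits the precision. The authors deposited scanner intensity for 25697 probes without detection p-values or control probes, and a table of log2 values of the same probes. The submitters' processing notes name lumi, with no version or role. A further sheet the authors deposited holds, per the file headers, a p-value (unadjusted), a signed fold change and the ratio 3MC over DMSO for each gene row, from a model not stated in these sources.

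The sheet and the value tables share no identifier. Rows were linked by their ratio: the log2 values were rounded to 6 significant digits, the difference of group means was taken, and a row was linked where its printed ratio matched 1 probe and no other row. This linked 16002 rows (62.3%), 98.9% of those at 1.5-fold or more and 46.0% of those under 1.05-fold, and 45.0% of ratios above 1 against 79.8% of those below. As a check, a spread was back-calculated from the deposited p-value and ratio as if from a normal test. It was set against the standard deviation of the linked probe across rows (Spearman rho = 0.645, against 0.24 for the next probe in order of ratio, and 0.369 against 0.007 for rows of 1.2-fold or more). The p-value was not used in linking, but the ratio was. Rows are not independent replicates. On data simulated with the same rounding rule 0.009% of links were wrong, a share that holds only where that rule does. Of 4792 real rows also linked at a tolerance of 0.00002, 4777 went to the same probe. At tolerances of 0.00005 and 0.0001, all 2633 and all 1596 such rows did. Symbols were updated by accession through RefSeq names (GRCm38.p6), which matched 23739 rows. Xaf1 was found under an older symbol. Of the 39 members, 7 had no promoter entry.

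Background correction of the intensities (normexp, offset 50), log2 and quantile normalization used limma 3.58.1 in R 4.3.3. The 12848 probes brighter on average than the median probe were tested with lmFit and eBayes, two-sided, without covariates, and p-values were adjusted by Benjamini-Hochberg over them (threshold 0.05). The pooled spread carried 30.8 prior degrees of freedom. The fit was tested on simulated data. No pair of arrays was identical. Same-numbered samples of the groups had deviations correlated at -0.079, -0.096 and 0.084, and other pairs at -0.068 to 0.141. No pairing by number was seen, but 3 arrays per group are too few to exclude one. Alternatives tried were other background corrections, normalizations, filters and link tolerances, the deposited log2 values, the replicate number as a block and leaving out each array.

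The brightest kept probe leads for each gene. Every member may be named. Of the other lists, the 10 called genes of largest change and some pathway genes whatever their values are named, and 1 item is not reported here. Members and lists were chosen with earlier results of these data known.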

Additional observations from a re-analysis of the deposited data

How the results depend on the processing

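Quantile normalization called 4136 probes. A separate fit called 1106 with arrays centred on their medians (343 higher and 763 lower in 3MC, so that 31% were higher against 49% with quantile normalization) and another called 2512 with the filter at the 75th percentile. Leaving out 1 array gave 3339 to 3607. The count of members called was 17 as reported, 5 with median centring (4 higher and 1 lower) and 8 of 13 tested with the filter at the 75th percentile. Other links gave 11 of 11 at a tolerance of 0.0001, 14 of 15 at 0.00002 and, chosen after seeing the data, 14 of 14 at 0.00005 and 17 of 22 with a stricter rule. Fewer members were tested under each of these links than the 25 as reported. The 17 called under the stricter rule were not the same 17. Ifit2 was no longer linked, and Irgm1 was called at its dimmer probe (0.23, adjusted p = 0.0487) because its brighter one was not linked. Leaving out 1 array gave 15 to 17 members. With the replicate number as a block, which is not known to pair samples, 3986 probes and 16 members were called. In the authors' deposited table, 5 members were past 1.5-fold, 16 past 1.2-fold, and 2 past 1.5-fold by the mean over rows.

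Of the 22 member probes called, 17 lost the call with median centring, 14 of them under no other setting, and 5 kept it under all settings that tested them. Median centring without 3MC replicate 1, chosen after seeing the data, called 5670 probes (568 higher and 5102 lower), with a median log2 shift of -0.198 over kept probes, and 10 members, 7 higher and 3 lower. Against that shift, Ifit2 at its leading probe was -0.02 (adjusted p = 0.917), Igtp -0.08 (adjusted p = 0.597), the dimmer Irgm1 probe -0.10 (adjusted p = 0.459) and the brighter Gbp3 probe -0.04 (adjusted p = 0.793), each with its sign turned. The cause was not tested. Without detection p-values, which dim probes stood above background is unknown.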
